A study of Mus musculus with 63 samples.

Results

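The genes described here are 10 genes of glycolysis and the response to low oxygen (*Slc2a1*, *Hk2*, *Pfkp*, *Pgk1*, *Eno1*, *Pkm*, *Ldha*, *Pdk1*, *Car9* and *Gys1*). They were taken by symbol from the 24766 genes of the normalised count table, and each of the 10 had 1 entry. The 63 libraries were bulk RNA sequencing of small intestinal tumours from 2 C57BL/6 *Apc het;Confetti* mice, 1 female and 1 male. In these mice *Villin-creERT2* acts in the intestinal epithelium, where 4 mg of tamoxifen, given at 8 weeks of age or later, recombined 1 floxed *Apc* allele and a Confetti colour reporter. All groups shared this genotype, the tamoxifen and a dose of 200 mg per kg of the mutagen ENU 10 days later, and no untreated or normal tissue was among the libraries used. From 20 tumours of mixed Confetti label (10 per mouse) the larger clone (major, 20 libraries) and the smaller clone (minor, 20 libraries) were dissected apart. The study counted a tumour as mixed when it held 2 or more colours, or 1 colour beside unlabelled glands. A further 23 tumours (10 female, 13 male) were sequenced undivided. Each library carried a segment label: among undivided tumours 12 came from SI10 and 11 from SI20, and SI30 was represented by 2 divided tumours. Every clone and tumour came from 1 of only 2 animals, and mouse and sex cannot be told apart. The study analysed 20 monoclonal tumours from 2 mice. The labels do not say which undivided tumours it counted as monoclonal, so all 23 were used. Without tumours 15, 17 and 18 of the male mouse, 20 undivided tumours were left, 10 per mouse. Their number is that of the monoclonal tumours, so they may be the set that the study analysed, but no label states this.

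Glycolysis turns glucose into pyruvate in the cytosol. Tumour cells often run it at a high rate and reduce the pyruvate to lactate even when oxygen is present. When oxygen is short, hypoxia-inducible factors (HIF1 and HIF2, encoded by *Hif1a* and *Epas1*) escape degradation and raise transcription of glucose transporters, most glycolytic enzymes and genes such as *Car9*. They bind short DNA elements with the core ACGTG or GCGTG.

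The members lie, on GRCm39 and in the Gencode M39 annotation, at chr4:118965908-118996365 (*Slc2a1*), chr6:82699740-82751469 (*Hk2*), chr13:6629798-6698970 (*Pfkp*), chrX:105230706-105247305 (*Pgk1*), chr4:150321073-150337027 (*Eno1*), chr9:59563364-59586663 (*Pkm*), chr7:46490899-46505061 (*Ldha*), chr2:71703488-71734202 (*Pdk1*), chr4:43506966-43513729 (*Car9*) and chr7:45084175-45106058 (*Gys1*). *Hk2* and *Pfkp* are on the minus strand and the other 8 on the plus strand. All are protein coding, with 8 exons in the canonical transcript of *Ldha* and 22 in that of *Pfkp* as the extremes. In the 300 bases before the canonical transcript start, ACGTG was found on either strand in 5 of the 10 members, against 19.7% of 21757 protein coding genes. GCGTG was also found in 5 of 10, against 34.0% of these genes, and either of them in 7 of 10, against 45.1%. The windows of the members were richer in G and C (52.7% to 71.3%) than the median of all windows (52.3%), and the shares were not matched for this. Because CACGTG reads the same on both strands, each such hexamer counts as 2 matches to ACGTG. *Ldha* had 6 matches, *Hk2* and *Pfkp* 3 each, *Pgk1* 2, and *Slc2a1*, *Eno1* and *Gys1* 1 each, while these letters were not in the windows of *Pkm*, *Pdk1* and *Car9*. These 3 windows lay wholly or mostly in annotated exons (300, 257 and 300 of 300 bases). The same held for 271 bases in *Gys1*, 131 in *Ldha*, 70 in *Eno1*, 17 in *Hk2* and 0 in *Slc2a1*, *Pfkp* and *Pgk1*. A missing match therefore describes this window only, not all regulatory DNA of the gene. These windows of *Slc2a1* (chr4:118965608-118965907, plus strand), *Hk2* (chr6:82751453-82751752, minus strand), *Pfkp* (chr13:6698971-6699270, minus strand) and *Pgk1* (chrX:105230406-105230705, plus strand) are given 5′ to 3′ on the strand of the gene, with the matches in capitals. They are shown for the 2 most variable members and for the next 2 glycolytic enzymes in pathway order among the members. A match is a description of the letters and not evidence of binding.
Slc2a1: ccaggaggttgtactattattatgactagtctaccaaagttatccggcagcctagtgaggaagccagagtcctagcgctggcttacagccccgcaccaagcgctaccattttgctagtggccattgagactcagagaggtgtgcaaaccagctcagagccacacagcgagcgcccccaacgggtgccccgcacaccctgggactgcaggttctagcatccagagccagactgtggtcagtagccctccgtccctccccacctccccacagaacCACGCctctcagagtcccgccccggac
Hk2: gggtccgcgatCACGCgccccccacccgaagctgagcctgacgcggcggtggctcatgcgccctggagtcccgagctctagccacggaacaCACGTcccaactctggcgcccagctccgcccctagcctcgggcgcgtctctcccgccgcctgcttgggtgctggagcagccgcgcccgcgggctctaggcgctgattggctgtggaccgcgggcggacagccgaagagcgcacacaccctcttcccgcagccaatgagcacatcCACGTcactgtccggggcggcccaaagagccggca
Pfkp: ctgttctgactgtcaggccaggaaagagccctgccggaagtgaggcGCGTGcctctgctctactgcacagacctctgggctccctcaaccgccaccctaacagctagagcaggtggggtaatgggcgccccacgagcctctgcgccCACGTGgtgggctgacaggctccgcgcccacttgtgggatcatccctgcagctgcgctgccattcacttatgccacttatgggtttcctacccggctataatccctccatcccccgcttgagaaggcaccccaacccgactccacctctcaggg
Pgk1: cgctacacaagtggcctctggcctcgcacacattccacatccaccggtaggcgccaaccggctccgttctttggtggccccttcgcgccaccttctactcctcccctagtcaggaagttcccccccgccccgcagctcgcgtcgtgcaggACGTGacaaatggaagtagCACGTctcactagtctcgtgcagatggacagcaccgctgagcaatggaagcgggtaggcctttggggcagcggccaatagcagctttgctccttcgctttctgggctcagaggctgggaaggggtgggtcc

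Summed over genes, a library held 26140227 to 45909885 normalised counts (median 30889255), and the number of reads behind them, estimated from the smallest values, was 13128851 to 52078908 (median 32726310). All 10 members passed the filter of a mean of at least 10 in every comparison. Undivided tumours 15, 17 and 18 of the male mouse stood apart. Results that rest on undivided tumours are therefore given with and without them, a choice made after the data were seen. Across genes their median r with the other libraries was 0.872, 0.889 and 0.876, against 0.889 to 0.951 in the other 60 libraries. The summed normalised count of 7 epithelial markers, all 7 of the list being in the table and none at 0 in any library, was 162630 to 199380 in these 3 and 223410 to 629040 in the other 60. The ribosomal RNA gene *Rn18s* had 3432400, 4913800 and 6081400 normalised counts in them, against a median of 887490 and a maximum of 5503400 in the others. Their estimated reads were 20274000, 19618000 and 14690000. The part of these differences in the results was not tested, and in bulk RNA fewer cells of a type and less RNA per cell cannot be told apart. Among the divided tumours, tumour 19 of the male mouse was lowest for several members in both of its clones.

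The members varied between tumours to unlike degrees, most of all the 2 genes that act where glucose enters the pathway. *Slc2a1* encodes GLUT1, the basal glucose transporter of many cells. Its normalised count ran from 2797 (median 6172) to 9377 in major clones and from 2490 (median 5275) to 12276 in minor clones. In undivided tumours it ran from 1030 (median 5285) to 11580. The groups overlapped widely, and the 3 lowest libraries of all 63 were undivided tumours 18 (1030), 17 (1096) and 15 (1278) of the male mouse.

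*Hk2* encodes hexokinase 2, which phosphorylates glucose and so traps it in the cell. Its values spanned 51.9-fold over the 63 libraries, from 154 to 7994. Major clones ranged from 562 (median 4442) to 6324, minor clones from 751 (median 3701) to 7994 and undivided tumours from 154 (median 3116) to 6926. The same 3 male tumours held the lowest levels (154, 316 and 276 in tumours 15, 17 and 18), and the next lowest were both clones of male tumour 19 (562 in the major and 751 in the minor clone). The 2 mice differed in range: undivided tumours of the female mouse lay between 3116 and 6926 (mean 5023 ± 1387, SD, n = 10), and those of the male mouse, without the 3 that stood apart, between 856 and 3885 (mean 2290 ± 960, SD, n = 10). After removal of the mouse means the SD of *Hk2* over undivided tumours was 1.17 on the log2 scale, above that of 98.4% of the 500 genes closest to it in level. For *Slc2a1* it was 0.87, above 96.0% of such genes. Without the 3 tumours these SDs were 0.55 and 0.60, above 91.2% and 92.4% of such genes.

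**Figure D1:**
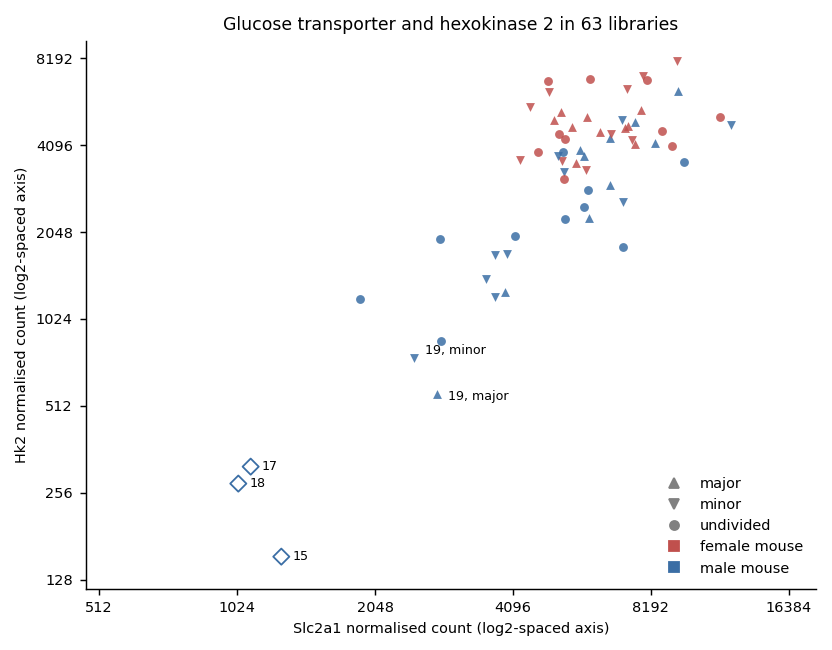
*Hk2* against *Slc2a1* (normalised counts, both axes log2-spaced) in the 63 libraries, with the class as the symbol and the mouse as the colour. Open diamonds are undivided tumours 15, 17 and 18 of the male mouse, with *Hk2* between 154 and 316, and both clones of male tumour 19 (562 and 751) lie next to them.

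*Pfkp* encodes the platelet isoform of phosphofructokinase, which commits sugar to glycolysis. It ranged from 3471 (median 7412) to 11288 in major, from 2966 (median 6478) to 8716 in minor clones and from 3417 (median 7498) to 14480 in undivided tumours. The 2 highest values of undivided tumours, 14480 and 10578, were in tumours 2 and 10 of the male mouse.

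The enzymes of the second phase of glycolysis varied less. *Pgk1* encodes phosphoglycerate kinase, which makes ATP. It ranged from 22899 (median 32163) to 42068 in major, from 19687 (median 29559) to 44419 in minor clones and from 12911 (median 28590) to 50278 in undivided tumours. *Eno1* encodes enolase 1, which forms phosphoenolpyruvate. It ranged from 37402 (median 56373) to 70114 in major, from 40884 (median 54644) to 63831 in minor clones and from 24931 (median 53337) to 76750 in undivided tumours. *Pkm* encodes the muscle-type pyruvate kinases, which release pyruvate. It ranged from 55776 (median 67850) to 90147 in major, from 58412 (median 64748) to 75902 in minor clones and from 37000 (median 69214) to 80630 in undivided tumours. For all 3 enzymes the lowest 3 libraries of the 63 were undivided tumours 15, 17 and 18 of the male mouse. Without these 3, the SD of *Pkm* over undivided tumours (0.15 on the log2 scale, mouse means removed) was above that of only 3.2% of the 500 genes closest in level.

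*Ldha* encodes lactate dehydrogenase A, which reduces pyruvate to lactate. It ranged from 53319 (median 77707) to 112480 in major, from 57083 (median 75572) to 94802 in minor clones and from 39328 (median 76448) to 120510 in undivided tumours. *Pdk1* encodes a kinase that shuts off pyruvate dehydrogenase and so keeps pyruvate from the mitochondria. It ranged from 2357 (median 3072) to 5357 in major, from 2285 (median 3055) to 4160 in minor clones and from 1629 (median 3203) to 4103 in undivided tumours. Here the lowest library was undivided tumour 3 of the male mouse, which was not among the 3 that stood apart (*Pdk1* at 2455, 2495 and 2101 in tumours 15, 17 and 18).

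*Car9* encodes carbonic anhydrase 9, an enzyme at the cell surface that helps to export acid and a much used marker of hypoxia. It ranged from 4795 (median 8967) to 12506 in major, from 3252 (median 7811) to 9911 in minor clones and from 2688 (median 7587) to 17116 in undivided tumours. Male tumour 18 was the lowest of all libraries (2688), whereas tumours 15 and 17 (7561 and 7892) lay near the median. In undivided tumours of the female mouse *Car9* stayed between 6039 and 9179 (mean 7034 ± 903, SD, n = 10), and in those of the male mouse without the 3 between 5626 and 17116 (mean 10884 ± 3416, SD, n = 10). *Gys1* encodes the glycogen synthase of muscle and most other tissues, which stores glucose as glycogen. It ranged from 509 (median 1043) to 1456 in major, from 670 (median 979) to 1312 in minor clones and from 440 (median 789) to 1151 in undivided tumours.

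**Figure D2:**
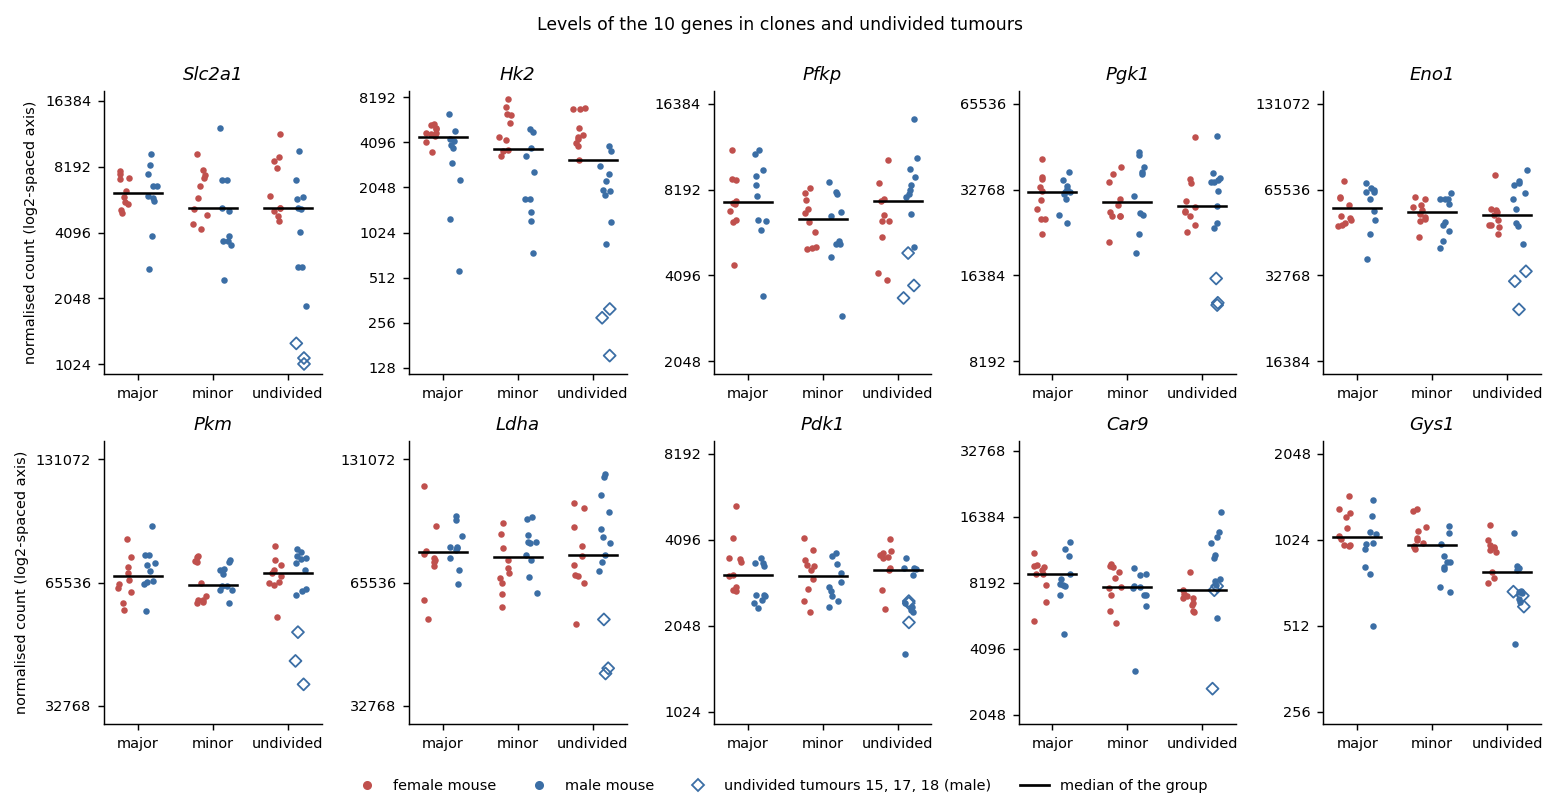
Normalised counts of the 10 genes (log2-spaced axes, 1 point per library) in 20 major clones, 20 minor clones and 23 undivided tumours, coloured by mouse, with the median of each class as a bar. Open diamonds mark undivided tumours 15, 17 and 18 of the male mouse, which are the lowest libraries for *Slc2a1*, *Hk2*, *Pgk1*, *Eno1* and *Pkm*; the median of *Gys1* was 1043 in major clones and 789 in undivided tumours.

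The paired comparison of major with minor clones asks whether clones that share a tumour, and with it a mouse, differ in these genes. The labels put both clones of a tumour in the same segment except in female tumour 22, whose major clone is labelled SI20 and whose minor clone is labelled SI10. This tumour had the largest excess of *Pdk1* in the major clone (log2 0.62), and without it the mean difference of *Pdk1* was -0.0013. None of the 10 members passed the threshold of an adjusted p of 0.05 (limma with tumour as a block, Benjamini-Hochberg over 16428 genes), against 1.14% of all genes tested. At an unadjusted p under 0.05 there were 2 members, *Pfkp* and *Car9*, and 3680 genes in all. All 10 estimates were above 0, with a median log2 difference (major minus minor) of 0.08 over the members and 0.0074 over all genes, but after quantile normalization *Pgk1*, *Eno1*, *Pkm*, *Ldha* and *Pdk1* lay below 0 (-0.0039 to -0.07). The mean normalised count of *Pfkp* was 7724 ± 2104 for major clones and 6343 ± 1479 for minor ones (SD, n = 20 each), with the major clone above its partner in 14 of 20 tumours. Its log2 difference was 0.27 (SE 0.07, 95% interval 0.12 to 0.42, adjusted p = 0.0525). This value lay so close to the threshold that it passed when 1 of 5 tumours was left out (female tumours 19, 23, 27 or 29, or male tumour 31; adjusted p from 0.0288 to 0.0472) and when only genes with a mean of at least 50 were tested (adjusted p = 0.0498). In each of these 5 tumours *Pfkp* was lower in the major clone, so leaving it out raised the estimate. With other tumours left out the adjusted p rose to as much as 0.0996. The mean normalised count of *Car9* was 8823 ± 1941 for major and 7805 ± 1660 for minor clones, the major clone being above its partner in 15 of 20 tumours, with a log2 difference of 0.18 (SE 0.064, 95% interval 0.048 to 0.31, adjusted p = 0.106).

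The other 8 members had log2 differences between 0.03 and 0.15, with adjusted p from 0.311 (*Slc2a1*) to 0.854 (*Pgk1*). The differences within single tumours were far wider than these means. *Hk2* was higher in the major clone of 9 tumours and in the minor clone of 11, with log2 differences from -0.75 (male tumour 26) to 1.77 (male tumour 22). In male tumour 22 the major clone also had the largest excess of *Slc2a1* (log2 1.16), *Pgk1* (0.71), *Eno1* (0.69), *Pkm* (0.63), *Ldha* (0.59) and *Gys1* (1.02) of all 20 tumours. Its *Hif1a* difference, 1.64, was likewise the largest. The mean difference of *Hk2* over tumours was 0.14 (95% interval -0.14 to 0.42), and 0.05 without male tumour 22. No member was called for a clone difference unlike between the 2 mice (0 of 10 called, against 0% of all genes, in limma on the difference per tumour, 0 members and 1257 genes at an unadjusted p under 0.05). *Hk2* came closest, with a difference between female and male tumours of -0.48 (95% interval -1.02 to 0.06, adjusted p = 0.669). This fit had little power: on simulated data it recovered a log2 difference of 0.5 for 13.5% of changed genes and of 1 for 54%. Among the marker lists, 9 of 10 stromal and muscle genes had higher estimates in major clones (median log2 difference 0.68, none called), as had 9 of 9 immune genes (0.49, none called) and 8 of 8 enterocyte genes (0.39, 1 called, *Sis*). So had 7 of 7 epithelial (0.13), 5 of 5 red cell (0.32) and 4 of 6 endothelial genes (0.24), none called. The part of these cells in the members' differences was not tested.

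**Figure D3:**
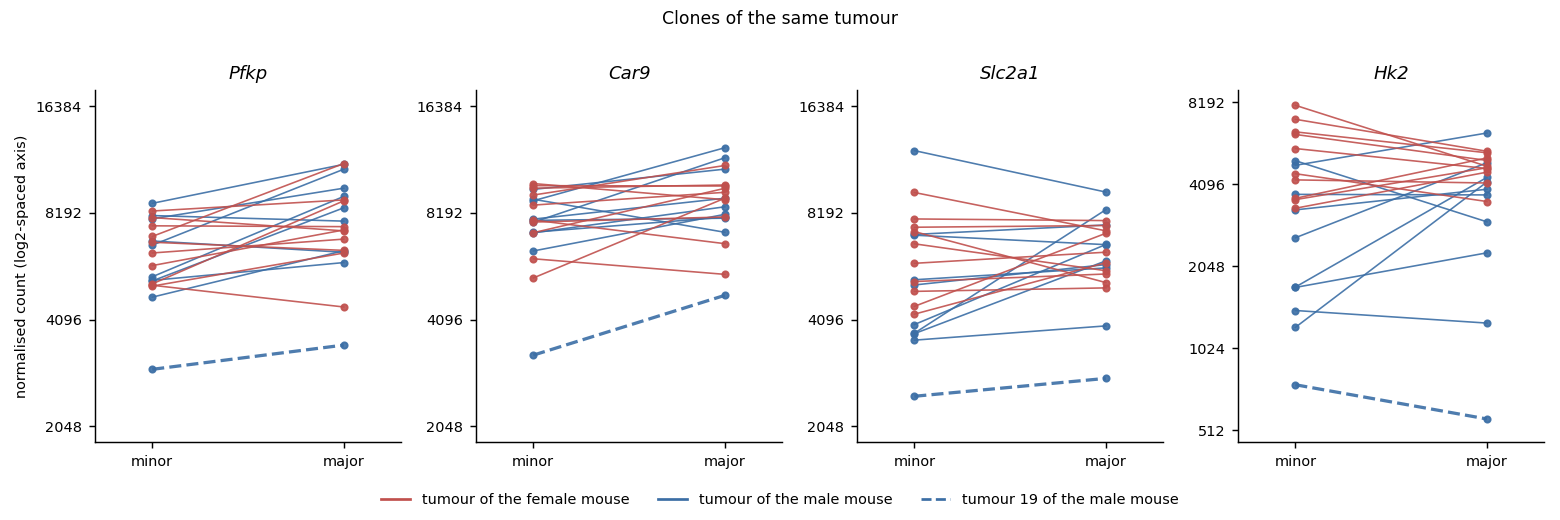
Normalised counts (log2-spaced axes) of *Pfkp*, *Car9*, *Slc2a1* and *Hk2* in the minor and the major clone of each of 20 tumours, joined by a line and coloured by mouse. *Pfkp* rises from minor to major in 14 tumours, *Car9* in 15, *Slc2a1* in 14 and *Hk2* in 9; the dashed line is tumour 19 of the male mouse, low in both clones.

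Undivided tumours were next compared with each class of clone, with mouse as a covariate. These comparisons share the undivided tumours. Against major clones no member was called, against 0.0121% of 16510 genes, with 1 member (*Gys1*) and 1973 genes at an unadjusted p under 0.05. All 10 estimates (undivided minus major) were below 0, from -0.03 for *Ldha* to -0.61 for *Hk2*. Most of that shift rested on the 3 male tumours that stood apart. Without them *Pgk1*, *Eno1*, *Pkm* and *Ldha* lay between 0.0082 and 0.10 and *Hk2* at -0.21 (95% interval -0.62 to 0.20), and 0 of all genes were called. *Slc2a1* changed from -0.42 (95% interval -0.85 to 0.01) to -0.16 (-0.48 to 0.16). Beside these, 0 of 10 stromal and muscle markers (median -0.71) and 0 of 6 endothelial markers (-0.55) had estimates above 0, with medians of -0.58 and -0.30 without the 3 tumours and none called. Against minor clones the medians of these lists were -0.05 and -0.31, with 1 endothelial gene called. Their part in the members' differences, *Gys1* included, was not tested.

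*Gys1* was the exception. Its mean normalised count was 799 ± 179 in undivided tumours (SD, n = 23), 980.0 ± 171 in the minor and 1063 ± 223 in the major clones (SD, n = 20 each). Against minor clones it fell by 0.29 on the log2 scale (SE 0.075, 95% interval -0.44 to -0.13, adjusted p = 0.0271), the only member called, against 3.7% of 16491 genes. Against major clones the estimate was larger and did not pass (-0.39, SE 0.090, unadjusted p = 7.9e-05, adjusted p = 0.132), in a fit where 2 of all genes were called. It passed against major clones when male tumour 19 (divided, adjusted p = 0.0228) or male tumour 7 (undivided, adjusted p = 0.0298) was left out, and with other tumours left out the adjusted p rose to as much as 0.253. Without undivided tumours 15, 17 and 18 the difference from minor clones was -0.27 (95% interval -0.43 to -0.11, adjusted p = 0.0422) and that from major clones -0.37 (adjusted p = 0.224). The call against minor clones was lost without male tumour 26 (adjusted p = 0.0528) or 29 (adjusted p = 0.0515), and within each mouse alone (-0.23 and adjusted p = 0.5115 in the female, -0.33 and adjusted p = 0.106 in the male). In the female mouse *Gys1* ran from 722 to 1151 in undivided tumours and from 953 to 1312 in minor clones, and in the male mouse from 440 to 1083 and from 670 to 1146. The ranges overlapped in both mice, with the lowest values of each mouse among undivided tumours.

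The other 9 members differed from minor clones by -0.45 (*Hk2*) to 0.15 (*Pfkp*), with adjusted p of at least 0.407. Without the 3 male tumours they lay between -0.07 (*Hk2*) and 0.27 (*Pfkp*, 95% interval 0.0097 to 0.52, adjusted p = 0.200). The median of the 10 members moved from -0.05 to 0.06, beside -0.01 over all genes.

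Other genes of the pathway, from lists written from general knowledge of it, were also compared between undivided tumours and minor clones. Of 9 sugar and lactate transporters 3 were higher in undivided tumours and none lower, against 2.27% of all genes higher and 1.43% lower. The 3 transporters were *Slc2a2* (GLUT2, log2 difference 1.49, SE 0.32, adjusted p = 0.0107), *Slc5a1* (SGLT1, which takes up glucose with sodium, 1.20, SE 0.26, adjusted p = 0.0107) and *Slc2a5* (the fructose transporter GLUT5, 1.12, SE 0.30, adjusted p = 0.0297). The lactate exporters *Slc16a1* (0.18, adjusted p = 0.443) and *Slc16a3* (-0.19, adjusted p = 0.643) did not pass. Of 8 gluconeogenesis genes tested, *Fbp1* (1.52, SE 0.31) and *Fbp2* (0.49, SE 0.10), both fructose-bisphosphatases, were higher (adjusted p = 0.00985 for both). Of the further glycolytic enzymes reported here, *Gapdh* (-0.09, adjusted p = 0.686), *Hk1* (-0.38, adjusted p = 0.165) and *Pklr* (0.40, adjusted p = 0.0872) did not pass. The 5 genes named here as higher kept an adjusted p under 0.05 without the 3 male tumours, where *Pklr* (0.49, adjusted p = 0.029) also passed. Several of these 5 are abundant in mature enterocytes, and beside them 8 of 8 enterocyte markers had higher estimates (median 0.53, 1 called, *Sis*). The part of enterocytes was not tested.

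Among targets of the hypoxia response, of 33 listed targets outside the members 5 were lower in undivided tumours than in minor clones and none was higher. Of all genes tested 1.43% were lower and 2.27% higher. The 5 lower targets included the procollagen modifiers *Plod2* (log2 difference -1.66, SE 0.36, adjusted p = 0.0107) and *P4ha2* (-0.80, SE 0.18, adjusted p = 0.0113) and the secreted glycoprotein *Stc2* (-1.11, SE 0.20, adjusted p = 0.00862). Without the 3 male tumours 7 were lower and 1, *Egln3*, was higher (0.41, SE 0.10, adjusted p = 0.0225). The share of all genes called in that fit is not given here, so these counts have no background beside them. *Egln3* encodes an oxygen-dependent prolyl hydroxylase that marks HIF proteins for degradation and is itself a HIF target. With all 23 tumours its difference was 0.28 (adjusted p = 0.28). *Hif1a* (-0.29, adjusted p = 0.46), *Epas1* (0.53, adjusted p = 0.15) and *Vegfa*, the angiogenic growth factor (-0.35, adjusted p = 0.109), did not pass. *Hif1a* was also low in the 3 male tumours (1250, 1363 and 2283 normalised counts, against a median of 8013 in the other 60 libraries). Against major clones no gene of any pathway list was called. Nor was any between major and minor clones, where *Slc5a1* (0.91, adjusted p = 0.0517), *Slc2a2* (1.05, adjusted p = 0.0612) and *Epas1* (0.36, adjusted p = 0.0621) had the lowest adjusted p. *Pdk4*, a second kinase of pyruvate dehydrogenase, had 0.52 in undivided tumours against minor clones (adjusted p = 0.201).

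**Figure D4:**
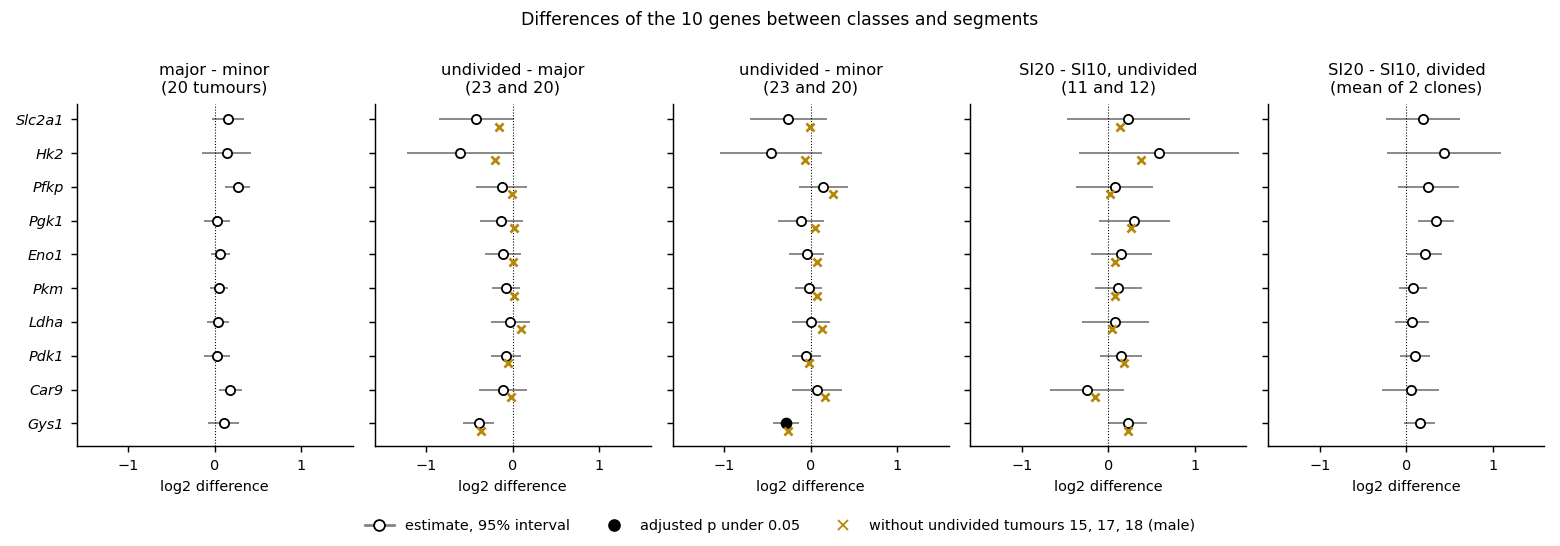
Log2 differences of the 10 genes in 5 comparisons (points, with 95% intervals as lines), the first 3 between classes and the last 2 between segments. The filled point is the only call, *Gys1* in undivided tumours against minor clones (-0.29), and crosses give the estimates without undivided tumours 15, 17 and 18 of the male mouse.

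The segments SI10 and SI20 were compared in undivided tumours and, separately, in 17 divided tumours whose clones both came from SI10 (7 tumours) or both from SI20 (10 tumours), with the mean of the 2 clones as 1 value per tumour. No member was called in either set, against 0.17% of 16511 genes in undivided and 0.28% of 16436 genes in divided tumours, with 1 and 2 members and 1258 and 2358 of all genes at an unadjusted p under 0.05. In divided tumours all 10 estimates (SI20 minus SI10) were above 0, with a median of 0.17 beside 0.0072 over all genes, and in undivided tumours 9 were, *Car9* being the exception (-0.25, 95% interval -0.68 to 0.18). Without male tumour 19 *Car9* was also below 0 in divided tumours (-0.13). *Slc2a1* then fell to 0.02, *Pfkp* to 0.09, *Eno1* to 0.16, *Pkm* to 0.05, *Ldha* to 0.02 and *Gys1* to 0.09. Whichever tumour was left out, *Pgk1* stayed between 0.31 and 0.43 and *Pdk1* between 0.05 and 0.14. The members also correlated with each other over tumours, so their 10 signs are not 10 separate results. Beside these, in divided tumours 6 of 7 epithelial (median 0.25) and 7 of 8 enterocyte markers (0.37) were above 0 and 8 of 9 immune markers below (-0.35). In undivided tumours 9 of 10 stromal and muscle (0.80), 6 of 6 endothelial (0.59) and 6 of 7 epithelial markers (0.15) were above 0. None of these was called, and their part was not tested. *Pgk1* was nearest to a call. In major clones it had 28035 ± 5102 normalised counts in SI10 (SD, n = 7) and 33978 ± 3384 in SI20 (SD, n = 11). In minor clones it had 26768 ± 5715 (n = 8) and 34972 ± 6786 (n = 10), and the ranges of the segments overlapped in both classes. These means include the clones of female tumour 22, which carry 2 segment labels and were left out of the fit. Its log2 difference was 0.35 in divided tumours (SE 0.10, 95% interval 0.13 to 0.56, adjusted p = 0.184), and it passed only without male tumour 20 (0.43, adjusted p = 0.0338). In undivided tumours it was 0.30 (95% interval -0.12 to 0.71, adjusted p = 0.735), and without the 3 male tumours 0.26 (-0.01 to 0.54). *Eno1*, which follows *Pgk1* by 2 steps in the pathway, differed by 0.21 in divided (95% interval 0.01 to 0.42, adjusted p = 0.328) and 0.15 in undivided tumours (-0.20 to 0.50). *Gys1* differed by 0.15 (-0.03 to 0.34) and 0.22 (0.0002 to 0.45, unadjusted p = 0.0498, adjusted p = 0.655).

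*Hk2* had estimates of 0.43 in divided (95% interval -0.23 to 1.10) and 0.58 in undivided tumours (-0.35 to 1.51), with the widest intervals of the members. Without male tumour 19 the former was 0.13. Within the female mouse alone it was -0.09 in divided and -0.0077 in undivided tumours. Outside the members, *Pck1* (phosphoenolpyruvate carboxykinase, the entry to gluconeogenesis) was higher in SI20 of divided tumours by a log2 of 2.89 (SE 0.52, adjusted p = 0.0236), as was *Pgam2* (muscle-type phosphoglycerate mutase, 1.84, SE 0.37, adjusted p = 0.0429), a gene of low level (mean 30.4 in major clones).

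Whether the 2 clones of a tumour resembled each other was examined by correlating a member's level in the major with that in the minor clone over the 20 tumours, with mouse and class means subtracted. All members except *Gys1* (r = -0.17) had a positive r. It was highest for *Pfkp* (r = 0.70, rho = 0.60, permutation p = 0.00186 and 0.00872), *Car9* (r = 0.69, rho = 0.51, p = 0.00343 and 0.0246), *Slc2a1* (r = 0.66, rho = 0.54, p = 0.00649 and 0.0186), *Hk2* (r = 0.64, rho = 0.48, p = 0.014 and 0.0603) and *Eno1* (r = 0.58, rho = 0.61, p = 0.0163 and 0.00916). Adjusted over the 10 members, the p of r lay between 0.0171 and 0.0326 for these 5. The median r was 0.50 over the members and 0.25 over all 16489 genes. The relation rested on a few tumours. Without the 2 tumours farthest from the median, r was 0.43, 0.32, 0.36, 0.33 and 0.48 in the same order. Without male tumour 19 alone, r of these 5 was 0.41 to 0.54 and none of the 10 members had an adjusted p under 0.05, the lowest being 0.144. Within mice r of these 5 was 0.39 to 0.61 in the female and 0.56 to 0.81 in the male. *Pgk1* (r = 0.43), *Ldha* (0.37), *Pkm* (0.35) and *Pdk1* (0.12) did not pass, and within the male mouse the r of *Pkm*, *Ldha* and *Pdk1* was -0.23, -0.07 and -0.41.

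Finally, the members were compared with each other over tumours, for all 45 pairs. Since the 3 male tumours formed a separate group at the low end, the correlations over undivided tumours are given without them (n = 20, mouse means removed). Of 45 pairs 40 had a positive r (median 0.45), and 18, all positive, had an adjusted p under 0.05 (100000 permutations within mice, two-sided, Benjamini-Hochberg over 45 pairs). With all 23 tumours 28 pairs were called. In the 20 divided tumours, with the mean of the clones, all 45 pairs were positive (median 0.53) and 30 were called. That count also depended on male tumour 19, without which 43 pairs were positive (median 0.37) and 10 were called. By rho as well, 16 of the 18 pairs and 21 of the 30 passed. By comparison, the median r of a member with all other genes was 0.0051 in undivided and 0.01 in divided tumours. Many single genes reached the r of the members. In undivided tumours 2.91% (*Eno1*) to 31.1% (*Gys1*) of all genes exceeded a member's median r with the others. In divided tumours this was 2.77% (*Pkm*) to 12.9% (*Pfkp*). The share of called pairs among all genes was not computed. A scaling factor that varies between libraries moves all genes of a library together, and after scaling to the same sum 24 pairs in all 23 undivided and 17 in divided tumours were called.

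**Figure D5:**
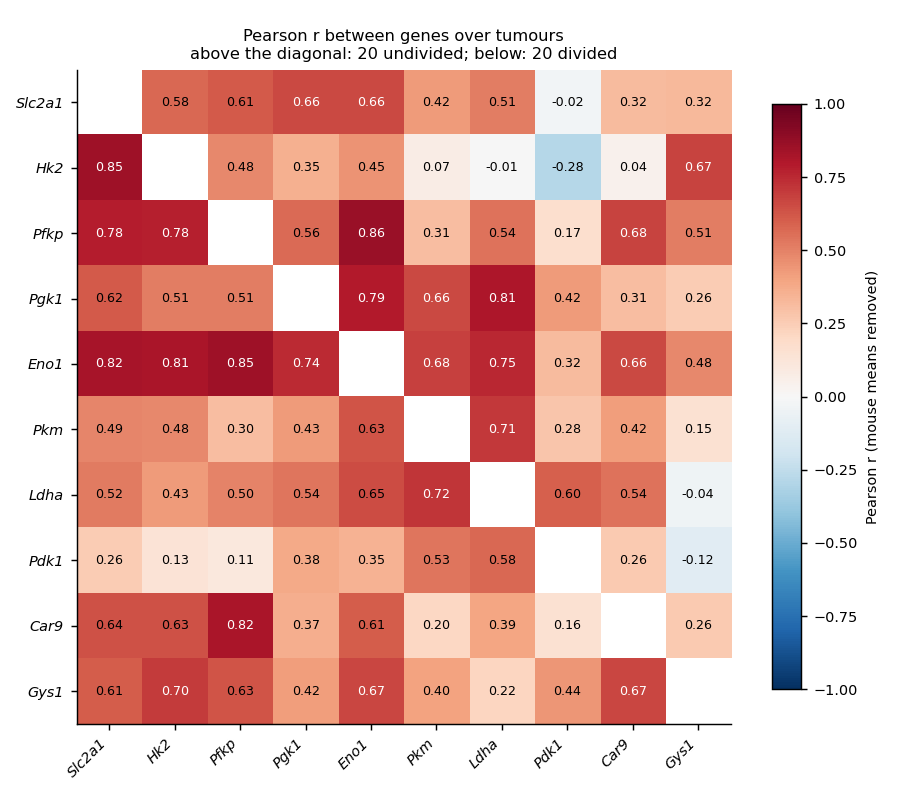
Pearson r of each pair of the 10 genes over tumours, with mouse means removed. Above the diagonal are 20 undivided tumours (without 15, 17 and 18 of the male mouse, median 0.45) and below it 20 divided tumours (mean of both clones, median 0.53). The lowest cell above the diagonal is *Hk2* with *Pdk1* (-0.28) and the highest *Pfkp* with *Eno1* (0.86).

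Of the pairs called, 16 passed in both sets of tumours, and 9 of these also without male tumour 19. These 9 joined *Slc2a1* to *Hk2*, *Pfkp* and *Eno1*, *Pfkp* to *Eno1* and *Car9*, *Eno1* to *Pgk1*, *Pkm* and *Ldha*, and *Pkm* to *Ldha*. *Eno1* was in 5 of the 9. *Pfkp* and *Eno1* had r = 0.86 in undivided (rho = 0.87, permutation p = 1e-05, the smallest that these permutations give, adjusted p = 0.00045) and 0.85 in divided tumours (adjusted p = 0.000675). Without the 2 tumours farthest from the median *Pfkp* it was 0.79 in undivided tumours, without male tumour 19 it was 0.75 in divided ones, and after quantile normalization 0.69 in all 23 undivided and 0.46 in divided ones. *Pgk1* and *Ldha* had r = 0.81 (rho = 0.85, adjusted p = 0.00135) and 0.54 (adjusted p = 0.0218), the latter 0.46 without male tumour 19 (adjusted p = 0.134). *Slc2a1* and *Hk2*, the first 2 steps of glucose use, had r = 0.58 (adjusted p = 0.045) and 0.85 (adjusted p = 0.0009). In undivided tumours this pair did not pass by rho (0.45, adjusted p = 0.126). There its r was 0.40 without the 2 tumours farthest from the median *Slc2a1*. Within mice its r was 0.15 in the female and 0.74 in the male for undivided tumours, and 0.37 and 0.93 for divided ones.

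In undivided tumours *Hk2* had r = 0.45 with *Eno1*, 0.35 with *Pgk1*, 0.07 with *Pkm*, -0.0062 with *Ldha* and -0.28 with *Pdk1*, none called (adjusted p of at least 0.132). In divided tumours it was called with *Eno1* (0.81, and 0.69 without male tumour 19, adjusted p = 0.0199). It was also called with *Pgk1* (0.51, adjusted p = 0.0437), *Pkm* (0.48) and *Ldha* (0.43). It lost the calls with *Pgk1*, *Pkm* and *Ldha* without that tumour (0.34, 0.33 and 0.26, adjusted p = 0.257, 0.154 and 0.223). Its r with *Gys1* was 0.67 (adjusted p = 0.0147) and 0.70 in divided tumours (adjusted p = 0.00964), but 0.35 without the 2 farthest undivided tumours and 0.48 without male tumour 19 (adjusted p = 0.126). The only pair of *Pdk1* called in both sets was that with *Ldha* (r = 0.60 and adjusted p = 0.018 in undivided, r = 0.58 and adjusted p = 0.0392 in divided tumours), and without male tumour 19 the latter was 0.56 with an adjusted p of 0.126.

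The genes most like each member were sought among 16489 genes over the 63 libraries, once class and mouse means had been subtracted (Pearson r, a description only, since clones of a tumour and all libraries of a mouse share their source). For *Slc2a1* they were *Bhlhe40* (0.90), *Rnf24* (0.88) and *Zdhhc21* (0.88), for *Hk2* *Sbno2*, *Duox2* and *Gfpt1* (0.87 each), and for *Pfkp* *Myo1d* (0.91), *Galnt6* (0.91) and *Copb2* (0.90). *Eno1* was most like *Aldoa* (0.89), *Lrrc59* (0.89) and the lactate exporter *Slc16a3* (0.88), and *Pkm* like *Eno1* (0.83), *Ldha* (0.82) and *Slc16a3* (0.81). *Ldha* was most like *Plpp2* (0.88), *Gapdh* (0.85) and *Eno1* (0.83), and *Pgk1* like *Tes* (0.87), *Chmp2b* (0.86) and *Arf6* (0.85). *Car9* was most like *Slc22a18* (0.83), the HIF prolyl hydroxylase *Egln3* (0.83) and *Ero1a* (0.82). *Gys1* and *Pdk1* had weaker partners, the nearest being *Ampd3* (0.70) and the HIF prolyl hydroxylase *Egln1* (0.70) and then *Itpr3* (0.69) for *Gys1* and *C1galt1c1* (0.68), *Vps35* (0.62) and *Coa5* (0.60) for *Pdk1*. Without the 3 male tumours (60 libraries) the first partner was the same for *Slc2a1* (0.83), *Hk2* (0.85), *Pfkp* (0.91), *Eno1* (0.89), *Ldha* (0.80), *Pdk1* (0.68) and *Gys1* (0.72), and a different one for *Pgk1* (*Chmp2b*, 0.80), *Pkm* (*Aldoa*, 0.71) and *Car9* (*Lyn*, 0.805). Several pathway partners then left the first 3: *Egln3* and *Ero1a* for *Car9*, *Slc16a3* for *Eno1*, *Slc16a3* and *Eno1* for *Pkm*, and *Gapdh* and *Eno1* for *Ldha*. *Ldha* stayed for *Pkm* (0.68) and *Egln1* for *Gys1* (0.70).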

How the data were processed

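Bulk RNA of 63 libraries was sequenced (polyA selection, stranded). Per the labels the authors used Trimmomatic 0.39, STAR 2.7.7a, Salmon 1.9.0, Picard 2.27.3, FastQC 0.11.9 and DESeq2 with GRCm39. The deposited values are a normalised count signal per gene, whose scaling is not given in the sources used here, and they were not treated as counts. The major or minor status of a clone came from the source table of the study, matched by sample title.

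Levels were log2(value + 1), genes with a mean under 10 were left out, and fold changes on this scale understate those of low genes. limma 3.58.1 (R 4.3.3, eBayes with trend, Benjamini-Hochberg, threshold 0.05) took the tumour as the block when clones were compared with each other, and the mouse as a covariate in the other fits. The block comes from the shared tumour: the deviations of its 2 clones had a median r across genes of 0.207, over 0.1 in 16 of 20 tumours, against -0.0182 for clones of different tumours. Since all tumours came from 2 mice, p-values measure the spread between tumours, not between mice. Correlations used 100000 two-sided permutations within mice (Python 3.11.15, numpy 2.4.6, scipy 1.17.1), and pandas 2.3.3 and matplotlib 3.10.9 served tables and plots. The windows before the transcript starts and the gene positions came from the GRCm39 genome and Gencode M39, which held 24575 of the table's identifiers.

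The members and gene lists were chosen with earlier results of these data known. All members were named, and from the other lists, 1 called gene that is not reported here aside, the genes called (at most the 3 of largest change per list, direction and comparison), *Hif1a*, *Epas1*, *Egln3*, *Vegfa*, *Gapdh* and other preset genes; *Slc5a1* and *Epas1* between clones were named after their values were seen. For likeness the 3 genes of highest r were taken. On simulated data a log2 difference of 1 was recovered for 87.5% of 200 changed genes between major and minor clones (16428 genes) and a difference of 0.5 for 54.5%. Alternatives were other pseudocounts (0.1 and 5), filters, scalings, covariates, single mice and each tumour left out.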

Additional observations from a re-analysis of the deposited data

Results flagged for a closer look

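Among 70 groups of 10 values, 2 held a value far from the rest by Dixon's criterion, which chance alone gives in about 1 group in 20. A group was the levels of a member in 1 class and mouse, or its clone differences in 1 mouse. The 13 undivided tumours of the male mouse, with tumours 15, 17 and 18 among them, were too many for the criterion used and were not tested. *Eno1* in undivided tumours of the female mouse was highest in tumour 9, at 73842 normalised counts, with the next at 56038 (gap over range 0.58, n = 10 libraries). *Car9* in minor clones of the male mouse was lowest in tumour 19, at 3251.9, with the next at 6396.9 (gap over range 0.629).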

How the results depend on the processing

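Under alternatives other than leaving out a tumour, 489 recomputed values kept their direction and their side of the threshold, 38 changed sign, 5 gained and 28 lost a call or moved a count by over 1.5 times. Unless a value or the alternative's own construction shows it, the cause of a change was not tested.

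Between major and minor clones 188 genes were called, 85 without a filter, 366 after quantile normalization (38.52% of them higher in major clones, against 58.51%), 292 with libraries scaled to the same sum, 0 in the female and 33 in the male mouse alone. With no replicate block, the pairing by tumour being dropped, 1 gene and 0 members were called. A minimum mean of 50 called 1 member. Undivided tumours against major clones gave 2 calls, 1 after quantile normalization, and 0 without a filter, with the same sum, with segment as a covariate, in either mouse alone or without the 3 male tumours. Against minor clones 610 genes were called, 323 with segment as a covariate and 0 in the female mouse, and 0 members in either mouse alone. Scaling to the same sum moved the median of all genes there to -0.11, and 36.67% of calls were then higher in undivided tumours, against 61.48%. Between segments 28 genes were called in undivided tumours, 18 with a pseudocount of 0.1, 46 in the male mouse, and 0 with the female mouse alone or without the 3 male tumours. In divided tumours 46 were called, 0 in the female and 6 in the male mouse. Members with resembling clones numbered 2 with the same sum and 0 without male tumour 19. Pairs called fell from 28 to 18 in undivided tumours without the 3, and from 30 in divided tumours to 17 with the same sum, 14 after quantile normalization and 10 without male tumour 19.

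Leaving out each tumour gave 25 to 859 calls between major and minor clones, 0 to 25 in undivided tumours against major and 274 to 959 against minor clones, and 5 to 53 and 13 to 215 between segments in undivided and divided tumours. The members called ranged from 0 to 1 in each, except 0 throughout between segments of undivided tumours. The extremes were without male tumour 20 and female tumour 19 (major against minor), male tumour 26 and female tumour 19 (undivided against minor), male tumour 8 and female tumour 6 (undivided segments) and female tumours 19 and 23 (divided segments). For the 25 it was male tumour 7.

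Estimates that changed sign were all uncalled. For major minus minor they were, after quantile normalization, *Pgk1* -0.0039, *Eno1* -0.043, *Pkm* -0.056, *Ldha* -0.074 and *Pdk1* -0.024, in the female mouse *Hk2* -0.10, and in the male mouse *Pgk1* -0.012 and *Pdk1* -0.045. For undivided minus major they were, in the female mouse, *Slc2a1* 0.063, *Hk2* 0.048, *Pkm* 0.029 and *Ldha* 0.016, in the male mouse *Car9* 0.060, and without the 3 male tumours *Pgk1* 0.019, *Eno1* 0.0082, *Pkm* 0.019 and *Ldha* 0.097. For undivided minus minor they were *Ldha* -0.20 and *Car9* -0.035 after quantile normalization, *Ldha* -0.084 and *Car9* -0.021 with the same sum, *Pkm* 0.0061 with segment as a covariate, *Slc2a1* 0.091, *Pgk1* 0.032, *Pkm* 0.051, *Pdk1* 0.091 and *Car9* -0.19 in the female mouse, *Ldha* -0.056 in the male mouse, and *Pgk1* 0.046, *Eno1* 0.073 and *Pkm* 0.070 without the 3. Between segments they were, in the female mouse, *Slc2a1* -0.18, *Hk2* -0.0077, *Pfkp* -0.012 and *Car9* 0.053 (undivided) and *Hk2* -0.085 and *Car9* -0.095 (divided), and *Pdk1* -0.088 in the male mouse (divided). Leaving out 1 tumour also took across 0 *Pgk1* (-0.0085 to 0.053) and *Pdk1* (-0.0013 to 0.060) for major minus minor, *Ldha* (-0.053 to 0.017) for undivided minus major, *Eno1* (-0.069 to 0.0011), *Pkm* (-0.033 to 0.015), *Ldha* (-0.017 to 0.053) and *Car9* (-7.4e-05 to 0.14) for undivided minus minor, and *Pfkp* (-0.019 to 0.18, undivided) and *Car9* (-0.13 to 0.13, divided) between segments.

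Depth was at least 13128851 estimated reads and all members passed the filter. In simulations a log2 difference of 0.5 between segments of undivided tumours (16511 genes) was recovered for 18% of changed genes.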
